A study of Drosophila melanogaster with 9 samples.

Results

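Control-leaning KDM5 regions are places on the fly chromosome arms where both unstressed control libraries held a KDM5 peak and at most 1 of the 2 paraquat libraries did. Of 7537 regions made by merging the 4 anti-HA peak lists wherever peaks shared at least 1 bp, 6897 lay on the arms 2L, 2R, 3L, 3R and X. Of these, 265 met the rule, which is 3.84% of the arm regions and 7.36% of the 3602 arm regions with a peak in both control lists. Members were chosen by which of the 4 anti-HA lists held a peak, so the number of regions, their pileups and their widths in those lists are descriptions and carry no test. The reverse choice, a peak in both paraquat lists and in at most 1 control list, gave 572 regions, or 8.29% of the arm regions.

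The samples were adult Drosophila melanogaster females, used as whole animals at an age of 1 to 3 days, and were studied by chromatin immunoprecipitation followed by sequencing (ChIP-seq). The 4 anti-HA libraries came from flies of genotype k6801/k6801;gHA-KDM5, homozygous for the allele k6801 and carrying a genomic rescue transgene that supplies KDM5 with an HA tag. Control flies were fed 5% sucrose for 6 hours, and paraquat flies the same sugar solution containing 20 mM paraquat for equally long; paraquat is a herbicide that generates reactive oxygen species. Libraries 1 and 2 of each condition are numbered in the sample titles, and nothing says whether they came from separate batches of flies. Wildtype w1118 flies, with no feeding recorded, gave 1 library made with an antibody against KDM5 and 1 with an antibody against the histone mark H3K4me3. These wildtype lists were not used to choose the regions. Whole animals pool all cell types, so weaker binding per cell and binding in fewer cells cannot be told apart.

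KDM5, called Lid in flies, belongs to a family of enzymes that remove methyl groups from lysine 4 of histone H3. H3K4me3, the trimethylated form of that lysine, marks the starts of active genes, and KDM5 proteins carry PHD fingers, one of which binds methylated H3K4. KDM5 is found largely at promoters, and in flies it is known both to repress and to activate genes, with roles in mitochondrial function and resistance to oxidative stress.

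Nearly all control-leaning regions lacked the peak in the same paraquat library. Of the 265, 250 were found in paraquat library 1 and not in paraquat library 2, a share of 94.3% with a 95% Wilson interval of 90.9 to 96.5. Only 6 lacked paraquat library 1 alone, or 2.26% (1.04 to 4.85), and 9 lacked both, or 3.40% (1.80 to 6.33). Of the 3602 regions in both control lists, 259, or 7.19%, had no peak in paraquat library 2, and 15, or 0.416%, had none in paraquat library 1. Within replicate numbers, where a region needed a peak only in the control library of that number, 229 of 4500 in number 1 had no paraquat peak, 5.09% (4.48 to 5.77), and 438 of 4060 in number 2 had none, 10.8% (9.87 to 11.8). The gap between the paraquat libraries was thus smaller within numbers than over regions of both controls. Paraquat library 1 had the longest list, with 6910 peaks on the arms, and paraquat library 2 the shortest, with 4782. The control lists held 5479 and 4855. The lowest local background recovered from a list, which grows with sequencing depth, was 13.7 fragments in paraquat library 1 and 13.4 in paraquat library 2, and 14.7 and 12.5 in the control libraries. No read totals are given, so these values do not show whether the libraries were equally deep. With every list trimmed to its 4853 strongest peaks by −log10 p, 253 regions were control-leaning, of which 66.8% lacked only paraquat library 2. The trimming counted peaks on and off the arms, so list lengths on the arms could still differ. Without paraquat library 2, with a peak in both controls and none in paraquat library 1 required, the number of regions was 17, and without paraquat library 1 it was 282. Leaving out a control library relaxes the rule to a peak in the other control, so that the number has to rise; it was 520 without control library 1 and 964 without control library 2. With 2 libraries a condition, an exact permutation test gives no p below 0.333, and no test of paraquat against control was made on these counts.

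The number of regions missing from a single list differed between the libraries. At the deposited list lengths 250 arm regions lacked only paraquat library 2, 217 lacked only control library 2, 217 lacked only control library 1, and 6 lacked only paraquat library 1. At equal list lengths these counts were 169, 152, 241 and 49, so control library 1 was then the list missing most often, and paraquat library 1 the least often in both settings. Equal lengths were set over whole lists and not on the arms. Before trimming, the arms held 5479 of 5886 peaks of control library 1 and 4855 of 4919 of control library 2. For paraquat libraries 1 and 2 they held 6910 of 7403 and 4782 of 4853. How far off-arm peaks shaped the equal-length counts was not tested. Another 138 regions had a peak in both paraquat lists and in neither control list, against the 9 of the opposite kind. At equal list lengths these counts were 94 and 35.

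In the control lists themselves the 265 regions sat at the weak end. Pileup, the number of ChIP fragments stacked at a peak's summit, had a median of 42 (range 30 to 65) in control library 1 and 35 (28 to 52) in control library 2. The weakest peaks of these lists had pileups of 30 and 27, and regions with a peak in all 4 libraries had medians of 56 and 48. The control-leaning peaks therefore stood much closer to the floor of each list than the shared ones did. Ranked within a list, where 100 is the highest pileup, their median percentile was 30.7 in control library 1 (quartiles 20.4 and 42.7) and 18.7 in control library 2 (7.54 and 30.7). Regions of all 4 libraries had median percentiles of 68.0 and 62.8. In control library 2, 26.0% of the 265 fell in the lowest 10% of the list and 5.28% in its upper 50%, and in control library 1 the shares were 12.5% and 15.8%. The rank was lower in control library 2 than in control library 1 for 187 of the 265, 70.6% (64.8 to 75.7), compared with 57.1% (55.4 to 58.8) of the regions of all 4 libraries.

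**Figure D1:**
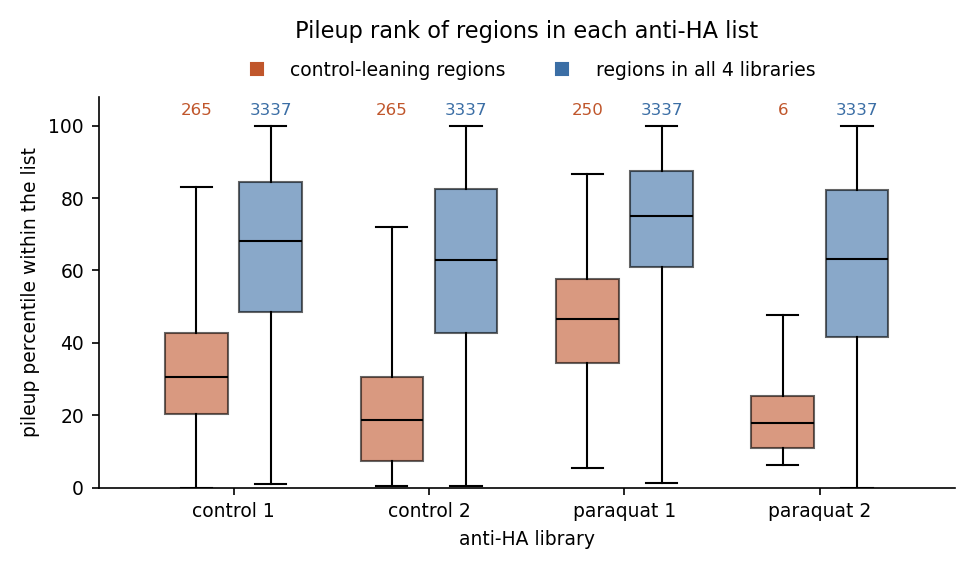
Pileup percentile within each anti-HA list for control-leaning regions and for regions in all 4 libraries. Boxes show the quartiles and median, whiskers the lowest and highest region, and the numbers above give the regions with a peak in that list. The control-leaning medians were 30.7, 18.7, 46.6 and 17.8 in control 1, control 2, paraquat 1 and paraquat 2, below the medians of the shared regions in every list.

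The paraquat peak that remained was not equally weak. The 250 regions with a peak in paraquat library 1 had a median pileup there of 48 (range 32 to 75) and a median percentile of 46.6, and 44.0% (38.0 to 50.2) of them lay in the upper 50% of that list. Paraquat library 1 was thus the list in which these regions ranked highest, but its list is also the longest and holds more weak peaks below them, so ranks do not show a change between lists. The 6 regions with a peak only in paraquat library 2 among the paraquat lists had pileups there of 33 to 45 and a median percentile of 17.8. The authors' median fold enrichment over local background was 2.67 in control library 1, 2.60 in control library 2 and 3.12 in paraquat library 1. In the shared regions the medians were 3.45, 3.48 and 4.28, so paraquat library 1 had the highest median in both sets.

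Whether a region had the paraquat peak went with how strong it was in the controls. Of the 45 regions whose mean percentile over both control lists was at most 10, 48.9% (35.0 to 63.0) had no peak in paraquat library 2 and 13.3% (6.26 to 26.2) had none in paraquat library 1. Between percentiles 20 and 30 the shares were 28.3% (23.2 to 33.9) and 0.372% (0.0657 to 2.08) of 269 regions. Between 50 and 60 they were 1.75% (0.890 to 3.42) and 0 of 457. The share without a peak therefore fell as control strength rose, and it extended further up the range in paraquat library 2. None of the 1354 regions with a mean percentile above 70 lacked either paraquat peak. Regions in both paraquat lists showed a gradient of the same kind toward each control: between mean paraquat percentiles of 20 and 30, 37.1% of 251 had no peak in control library 1 and 43.4% had none in control library 2.

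**Figure D2:**
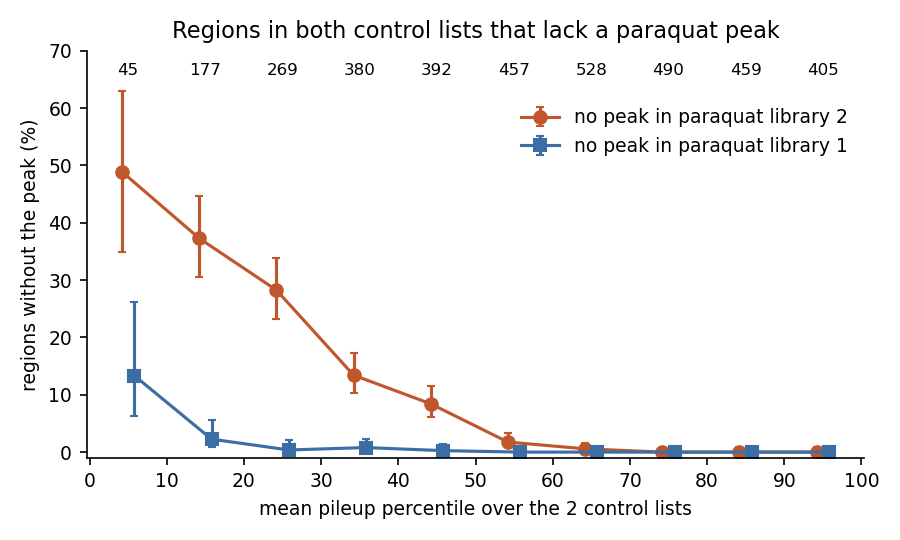
Share of the 3602 regions in both control lists that had no peak in paraquat library 2 (circles) or paraquat library 1 (squares), in bins of 10 of the mean control pileup percentile. Bars are 95% Wilson intervals and the numbers above are regions per bin; the share for paraquat library 2 fell from 48.9% in the weakest bin to 0 above percentile 70.

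Control-leaning regions were narrow as well. Their median width was 410 bp (quartiles 307 and 504), against 689 bp (535 and 895) for regions of all 4 libraries, and the widest was 1040 bp. The 9 regions without any paraquat peak had a median of 173 bp, the 6 lacking only paraquat library 1 a median of 191.5 bp, and the 250 lacking only paraquat library 2 a median of 425 bp. Width depends in part on how many lists were merged, so these medians also reflect the rule. Most regions held 1 peak per library: 22 of 265 held more than 1 in control library 1 and 12 in control library 2. The local background that the caller set against the peaks, recovered from pileup and fold, stood at the lowest value of the list for 60.8% (54.8 to 66.4) of the regions in control library 1 and 57.7% (51.7 to 63.5) in control library 2. In regions of all 4 libraries these shares were 57.8% and 54.9%, inside those intervals. In the control lists the control-leaning peaks were thus low in pileup, and stood at the lowest background about as often as shared peaks. In paraquat library 1 the share at the lowest background was 46.4% (40.3 to 52.6), against 57.9% (56.2 to 59.6) for the shared regions. Where a list held no peak, its local background could not be recovered.

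The 9 regions with no peak in either paraquat list were mostly near the bottom of the control lists. Positions are on dm3 and count from 1. The strongest, on 2L at 10436041 to 10436357, had pileups of 47 and 39 in control libraries 1 and 2, at percentiles 45.7 and 34.8. Next came a region on 2R at 19634136 to 19634296, with pileups of 41 in both and percentiles of 27.5 and 42.8. These were the only ones of the 9 with a mean percentile above 20. On X, the region at 173406 to 173578 had pileups of 37 and 35, the region at 3467423 to 3467564 had 38 and 32, and the region at 5217945 to 5218171 had 38 and 28. On 3R, the region at 22362041 to 22362237 had 30 and 34. Its pileup of 30 in control library 1 was the lowest in that list. The region on 2L at 2420870 to 2421020 had 34 and 32, that on 2R at 10880993 to 10881216 had 35 and 31, and that on 3L at 20386406 to 20386560 had 34 and 31. Each of the 9 overlapped endogenous KDM5 in wildtype flies, with folds between 4.22 and 8.18, and none held an H3K4me3 peak, which at 0 of 9 allows a share of up to 29.9% by the Wilson interval. For 2 of them a paraquat library 1 peak lay close by without touching, at gaps of 21 bp (3L) and 196 bp (X, at 3467423).

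The strongest regions that lacked only paraquat library 2 were well above the floor of the other lists. On 3L at 692409 to 692849, the pileups were 53, 52 and 62 in control 1, control 2 and paraquat 1, at percentiles of 60.9, 71.9 and 71.0, and the nearest paraquat library 2 peak was 1671 bp away. On 3L at 5128942 to 5129393 they were 57, 44 and 70, and a paraquat library 2 peak lay 194 bp away. On 3R at 8456388 to 8457060 they were 65, 40 and 75, at percentiles of 83.0, 38.8 and 86.6. This last region shows how far the control libraries could part: its fold was 4.21 in control library 1 and 3.04 in control library 2, a mean of 3.63 ± 0.823 (SD, n = 2). Each of the 3 overlapped an H3K4me3 peak and a wildtype KDM5 peak, the latter with folds between 8.37 and 10.1. Of the 6 regions lacking only paraquat library 1, the strongest were weaker than these. The one on 3L at 3060720 to 3060869 had pileups of 42, 41 and 39 in control 1, control 2 and paraquat 2. The one on X at 11922763 to 11922988 had 40, 42 and 45, and a paraquat library 1 peak lay 35 bp away. The one on 2R at 130282 to 130607 had 41, 34 and 36. None of the 6 held H3K4me3. The region on 3R at 13994156 to 13994273, one of these 6, was the narrowest of the 265 at 118 bp. The widest was on 2R at 20556449 to 20557488 and lacked only paraquat library 2.

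Endogenous KDM5 was found at every control-leaning region. All 265 held a wildtype KDM5 peak, 100% (98.6 to 100), and each held exactly 1; over all arm regions the share was 94.1%, and in regions of all 4 libraries it was 99.97%. In regions of the reverse choice it was 98.4% (97.0 to 99.2). The wildtype peaks were not weak in their own list: their median fold was 8.04 (quartiles 6.74 and 9.05), and 242 of the 265, 91.3% (87.3 to 94.1), lay in the upper 50% of that list by pileup. Regions of all 4 libraries had a median wildtype fold of 8.90, with 97.2% (96.6 to 97.7) in the upper 50%. Regions weak in the anti-HA control lists thus often overlapped a wildtype peak that was strong in its own list. These wildtype values belong to the summit of the whole peak, which 195 of the 265 regions held, 73.6% (68.0 to 78.5). Of the regions of all 4 libraries, 91.3% (90.3 to 92.2) held it. The highest wildtype folds were 10.8 on 2R at 18496041 to 18496639, 10.8 on 2R at 19924798 to 19925201, and 10.6 on 3L at 18102944 to 18103314. The first of these had control pileups of 42 and 31, the second 46 and 32, and the third 50 and 45, and all 3 lacked only paraquat library 2. A wildtype summit lay within 250 bp of a control summit in 80.4% of the 265. Within 100 bp the share was 67.9% (62.1 to 73.3), below the 75.9% (74.5 to 77.4) of regions of all 4 libraries.

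**Figure D3:**
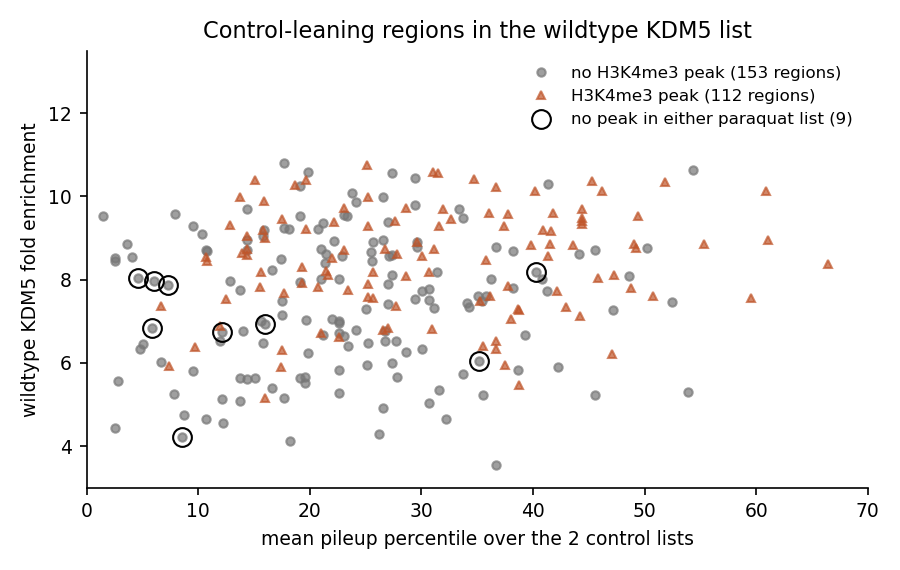
Fold enrichment of the wildtype KDM5 peak (the authors' value) against the mean control pileup percentile for the 265 control-leaning regions. Triangles are the 112 regions with an H3K4me3 peak, filled circles the 153 without, and open rings the 9 regions with no paraquat peak; wildtype folds ran from 3.55 to 10.8 and are spread over the whole range of control strength.

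H3K4me3 was found at fewer control-leaning than shared regions. It overlapped 112 of the 265, or 42.3% (36.5 to 48.3), against 83.7% (82.4 to 84.9) of the regions of all 4 libraries and 49.3% of all arm regions. Regions lacking only control library 2 had 47.9% (41.4 to 54.6), regions lacking only control library 1 had 23.5% (18.4 to 29.6), and the 250 lacking only paraquat library 2 had 44.8% (38.8 to 51.0). These 250 are most of the control-leaning regions themselves, and of the 6 lacking only paraquat library 1 none held the mark. The share in control-leaning regions thus lay between those of regions lacking only control library 1 and only control library 2. It was above the 30.8% (27.1 to 34.7) of the 572 regions of the reverse choice. Those include 138 regions in neither control list, of which 15.2% (10.2 to 22.1) held the mark. All 112 regions with the mark lacked only paraquat library 2: without that library 0 of 17 regions held it. Under the relaxed rule without control library 1 or control library 2 the share was 28.5% or 27.5%. The intervals cover counting error only, regions are not replicates and the H3K4me3 list is from 1 library, so no test was made over regions.

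Setting the regions beside shared regions of like strength or width left a smaller gap in H3K4me3. If regions of each bin of mean control percentile held the mark as often as the regions of all 4 libraries in that bin, 151.8 of the 265, 57.3%, would hold it; 112 did. With bins of region width the number was 158.3, or 59.7%, and with bins of wildtype KDM5 fold it was 198.3, or 74.8%. By bin, the shares were 13.0% (4.54 to 32.1) of 23 control-leaning and 59.1% (38.7 to 76.7) of 22 shared regions up to percentile 10, and 33.8% (24.2 to 44.9) of 77 and 49.5% (42.5 to 56.5) of 192 regions between 20 and 30. Between percentiles 40 and 50 they were 69.7% (52.7 to 82.6) of 33 and 69.9% (65.0 to 74.4) of 359. The shares were not this close in the bins on either side. They were 38.2% and 46.8% from 10 to 20, and 50.9% and 67.9% from 30 to 40. From 50 to 60 they were 50.0% of 8 and 81.3% of 449, and from 60 to 70 100% of 3 and 90.7% of 525. In both sets the mark was more frequent between percentiles 40 and 50 than between 20 and 30. The intervals of the sets overlapped in each bin above percentile 10. Leaving out the weakest bin's 23 regions, 109 of 242, 45.04%, held the mark, and 138.2, 57.1%, would at the shares of the shared regions.

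**Figure D4:**
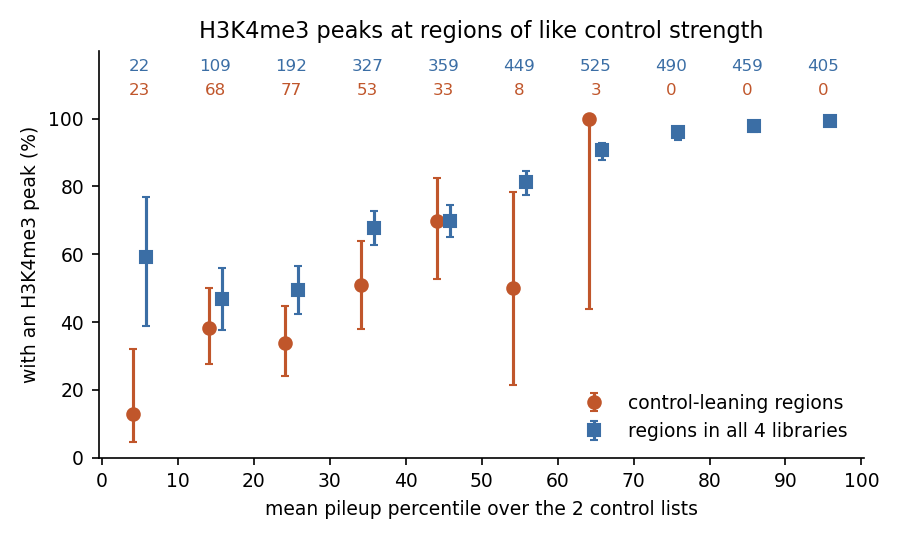
Share of regions with an H3K4me3 peak in bins of 10 of the mean control pileup percentile, for control-leaning regions (circles) and regions in all 4 libraries (squares). Bars are 95% Wilson intervals and the 2 rows of numbers give regions per bin. The shares were 13.0% and 59.1% in the weakest bin and 50.9% and 67.9% between percentiles 30 and 40. They were 69.7% and 69.9% between percentiles 40 and 50, and 50.0% of 8 and 81.3% of 449 between 50 and 60.

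Where the mark was present, its peaks were small. Their median fold was 2.42 (range 1.77 to 3.42), their median width 214 bp and their median pileup percentile in the H3K4me3 list 25.3, compared with 2.73, 382.5 bp and 59.7 at regions of all 4 libraries. More than 1 H3K4me3 peak was found in 5 control-leaning regions, 1.89% (0.809 to 4.34), against 15.9% (14.7 to 17.2) of the shared regions. These shares include regions without the mark, and among regions with it the counts were 5 of 112 and 531 of 2794. Of all 6897 arm regions, 552 held more than 1. So did 3 of 217 regions lacking only control library 2, 4 of 217 lacking only control library 1 and 8 of 572 of the reverse choice. A low share was thus not particular to the control-leaning regions. The highest H3K4me3 folds were 3.42 on 3R at 5510351 to 5511166, 3.28 on X at 12801191 to 12801837, which held 3 such peaks, and 3.21 on 2R at 8768237 to 8768662. Their control pileups were 53 and 36, 46 and 38, and 38 and 35. The median offset from the H3K4me3 summit to the nearer control summit was 63.5 bp, and 52.5 bp in shared regions. Offsets were taken only where an H3K4me3 peak overlapped the region, and to the nearer summit, so small values are in part set by this choice. Of the 153 regions without the mark, 11, or 7.19% (4.06 to 12.4), had an H3K4me3 peak within 250 bp, and the median gap to the nearest was 1864 bp.

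Control-leaning regions with and without H3K4me3 differed in other readouts. The 112 with the mark had a median width of 465.5 bp, and the 153 without it 355 bp. Their median wildtype KDM5 folds were 8.58 and 7.61, and their median pileups were 44 and 41 in control library 1, 36 and 34 in control library 2, and 51 and 45 in paraquat library 1. Regions with the mark were thus wider and, at the median, slightly higher in each of these lists. They lay no nearer to shared regions, since 37.5% (29.1 to 46.7) and 37.9% (30.6 to 45.8) had a region of all 4 libraries within 1000 bp. Width enters the chance of an overlap, and its part in the difference was not tested.

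A shared KDM5 site lay close by about as often as it did for shared regions themselves. The median gap to the nearest region of all 4 libraries was 1751 bp (quartiles 396 and 5750), and 100 of the 265, 37.7% (32.1 to 43.7), had one within 1000 bp. A region of all 4 libraries lay 1829 bp (388 and 6246) from the next such region at the median, and 39.8% (38.2 to 41.5) had one within 1000 bp. Over all arm regions the share was 42.6%, and in regions of the reverse choice it was 36.4% (32.5 to 40.4). Only 5 control-leaning regions had shared regions within 1000 bp on both sides, and 8 had another control-leaning region within 1000 bp. The wildtype KDM5 peak of 47 regions, 17.7% (13.6 to 22.8), also covered a shared region. Most of these 47 lay away from the summit of the broader endogenous peak: 7 of them, 14.9% (7.41 to 27.7), held the summit of that wildtype peak, whereas 188 of the other 218, 86.2% (81.0 to 90.2), did. Their H3K4me3 shares were 42.6% (29.5 to 56.7) and 42.2% (35.8 to 48.8), which overlap.

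Some of the regions without a paraquat library 2 peak had one close by, as did other arm regions that lacked it. Of the 259 regions without a paraquat library 2 peak, 22, or 8.49% (5.68 to 12.5), had one within 100 bp of their edge, 51, or 19.7% (15.3 to 25.0), within 250 bp, and 113, or 43.6% (37.7 to 49.7), within 1000 bp. Over all 6897 arm regions, 4172 held a paraquat library 2 peak, and 4747 held one or had one within 250 bp. A peak this close was thus not particular to the control-leaning regions. In 62, 23.9% (19.1 to 29.5), a paraquat library 2 peak lay elsewhere in the same wildtype KDM5 peak. For most of the 259, then, the endogenous peak held no paraquat library 2 peak at all. Merging peaks up to 200 bp apart left 214 control-leaning regions. H3K4me3 was found at 45.1% (32.3 to 58.6) of the 51 with a paraquat library 2 peak within 250 bp and at 42.8% (36.3 to 49.6) of the other 208. The summits of the 2 control libraries lay within 100 bp of each other in 65.7% (59.8 to 71.1) of the 265 and in 64.8% (63.1 to 66.4) of the shared regions.

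**Figure D5:**
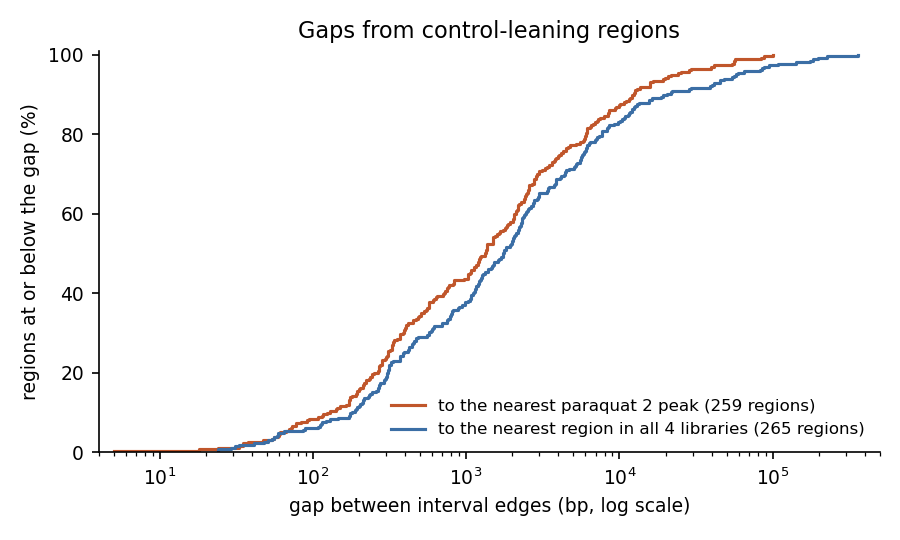
Cumulative share of control-leaning regions by the gap to the nearest paraquat library 2 peak (259 regions without such a peak) and to the nearest region in all 4 libraries (265 regions), on a log axis in bp. Of the 259, 19.7% had a paraquat library 2 peak within 250 bp; the median gap to a region in all 4 libraries was 1751 bp.

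The regions nearest to the rule's limit on either side are given as examples. Just inside, a region on 2R at 12842397 to 12842717, 321 bp wide, was 5 bp from a paraquat library 2 peak, with pileups of 45, 30 and 45 in control 1, control 2 and paraquat 1. Another, on 2L at 10388373 to 10388660 and 288 bp wide, was 18 bp from one, with 46, 33 and 40. Just outside, a region of all 4 libraries on 2L at 6920778 to 6921214, 437 bp wide, had pileups of 37, 35, 30 and 47 in control 1, control 2, paraquat 1 and paraquat 2, and its paraquat library 1 peak had a fold of 1.81. Another, on 2R at 15180123 to 15180656 and 534 bp wide, had 41, 38, 45 and 40, with a fold of 1.70 in paraquat library 2.

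The regions were spread over the arms. They made up 7.79% (5.94 to 10.2) of the regions in both control lists on 2L, 7.78% (6.05 to 9.94) on 2R, 7.42% (5.70 to 9.60) on 3L, 7.37% (5.83 to 9.26) on 3R and 6.38% (4.73 to 8.54) on X. These intervals all overlap. Regions without any paraquat peak numbered 3 on X, 2 each on 2L and 2R, and 1 each on 3L and 3R. H3K4me3 was found at 33.3% (22.5 to 46.3) of the control-leaning regions on 2R and 48.5% (36.8 to 60.3) of those on 3R, the lowest and highest of the arms, with overlapping intervals.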

How the data were processed

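Peak lists of 6 ChIP libraries were used; the 3 inputs had no list and were not analysed here. The submitters' processing notes name CASAVA 1.4, Bowtie, MACS2 and the build dm3; which input served which library, other versions and all settings were not given in the sources used here. The labels' protocols give a size selection of 150 to 350 bp. Each list is of 1 library. The authors deposited, for each peak, a signal value (pileup at the summit), a −log10 p, a fold enrichment ratio and a −log10 q. Pileups are whole numbers except in the wildtype KDM5 list, which is scaled. No read totals are given, so the depth is unknown. The weakest peaks had q-values of 0.0421 to 0.0498.

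Anti-HA lists were merged into regions with Python 3.11.15, and a region's value in a library is that of its peak with the highest pileup. Percentiles rank pileups within a list. Local background was recovered as (pileup + 1)/fold − 1, and counts as lowest when within 0.1% of the list's minimum. Gaps are bp between interval edges. Wilson intervals (SciPy 1.17.1) are at 95% and cover counting error only. Code was tested on simulated lists. No test over regions or libraries was run; an exact permutation test of 2 libraries against 2 gives no p below 0.333.

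The regions, their named examples and the alternatives were chosen with earlier results of these data known. Named regions are those without a paraquat peak, the 3 strongest lacking each single paraquat library, the 3 highest in H3K4me3 and in wildtype KDM5 fold, the widest, the narrowest and those next to the rule's limit. No genome or gene models of dm3 were used, so genes and sequences at these positions were not analysed here.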

Additional observations from a re-analysis of the deposited data

How the results depend on the processing

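No paired analysis was possible because no result comes from a test; within numbers, 5.09% of control 1 regions lacked a paraquat 1 peak and 10.8% of control 2 regions a paraquat 2 peak. Against 265 regions, of which 94.3% lacked only paraquat library 2 and 42.3% held H3K4me3, intervals of 200 bp at the summits gave 678 regions, 67.6% and 61.7%. Such intervals can split 1 site into several regions. At equal list lengths 66.8% of 253 lacked only paraquat library 2. Of the 265, 204 met a control-leaning region of that setting, and 246 did with intervals of 200 bp. In settings chosen after seeing the data, equal lengths with intervals of 200 bp gave 628 regions, 56.8% and 64.5%, and equal lengths with peaks within 200 bp merged gave 66.0% of 206 lacking only paraquat library 2. The causes were not tested. Requiring summits within 250 bp lowered the share with a wildtype KDM5 peak from 100% to 80.4%. Within 100 bp it was 67.9%, against 75.9% of regions of all 4 libraries. Leaving out 1 library, which relaxes the rule where it is a control, gave 17 to 964 regions, wildtype KDM5 shares of 88.8% to 100% and H3K4me3 shares of 0 to 45.4%. A −log10 q of at least 2, peaks within 200 bp merged, and all chromosomes gave 265, 214 and 270 regions and H3K4me3 shares of 43.4%, 43.5% and 42.6%. Median width ran from 173 to 461 bp and the median control percentiles from 13.2 to 45.7 and from 14.5 to 38.8 over all settings. Of 25 named regions, 13 were still control-leaning without paraquat library 2 and 17 to 25 in the other planned settings. Unknown depth limits how a missing peak can be read: a library without a listed peak may hold signal below the caller's threshold.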

Other observations

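Off the 5 arms, on chromosome 4 and the heterochromatic and unplaced scaffolds, the same rule found 5 of 640 merged regions, 0.781% (95% Wilson interval 0.334 to 1.82). Of these 5, 3 held an H3K4me3 peak and 2 a wildtype KDM5 peak, so 3 had no endogenous KDM5 peak. The wildtype KDM5 list had 8440 of its 8948 peaks on the arms, and the H3K4me3 list 4612 of 7287. The same shares over all 640 regions are not given here, so these counts do not set the 5 apart from other regions off the arms. Regions this few carry no test.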
